A study of Mus musculus with 24 samples.

Results

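Cholesterol synthesis, uptake, export and storage were followed through 28 genes chosen by name from the pathway, out of 55421 genes in the count table. The choice was made with earlier results of these data known. Of the 28, 18 encode enzymes of synthesis, with 7 acting in the mevalonate steps and 11 in the squalene and sterol steps. The others were 4 genes of the SREBP2 control system (Srebf2, Scap, Insig1 and Insig2), 2 of uptake and carriage inside the cell (Npc1l1 and Stard4), 3 exporters (Abcg5, Abcg8 and Abca1) and the esterifying enzyme Soat2. A filter on low counts kept 27 of the 28 among 13847 genes tested. Npc1l1, the intestinal sterol uptake channel, was left out by it.

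RNA was sequenced from hepatocytes of 24 male C57BL/6J mice, isolated by perfusing the liver with digestion enzymes and enriched on a Percoll gradient. All groups began vehicle or drug on normal diet at 4 months of age and entered the last 9 weeks at 18 months. The ND+veh group (n = 8) ate normal diet with vehicle, the empty capsule polymer (eudragit), throughout. HFD+veh mice (n = 7) had vehicle and at 18 months changed to a diet with 60% of its calories from fat for those 9 weeks. HFD+eRapa mice (n = 9) made the same change but had taken encapsulated rapamycin, an inhibitor of the growth kinase mTORC1, at 42 ppm in the food from 4 months of age onward. No mice given rapamycin on normal diet were analysed here, so a drug effect on normal diet cannot be told apart from one on HFD.

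Cholesterol is built from acetyl-CoA through mevalonate, squalene and lanosterol, and the liver is a main site of its synthesis, secretion and disposal into bile. When sterol in the endoplasmic reticulum falls, SCAP carries the transcription factor SREBP2 to the Golgi, where it is cut and released to switch on the synthesis genes. INSIG proteins hold SCAP back when sterol is plentiful. mTORC1 is known to promote SREBP activity in cultured cells and liver.

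Library totals ran from 17739252 to 25945134 counts. The 6 hepatocyte markers in the table summed to 48540 to 161569 CPM across animals (CPM being counts scaled to a common library total with TMM factors), so the libraries carried the labelled cell type throughout. Markers of other liver cells differed between groups. The 8 macrophage markers summed to a median of 232 CPM in ND+veh (39.5 to 1230), 2273 in HFD+veh (156 to 5221) and 186 in HFD+eRapa (14.2 to 1053), and none of the 8 was at 0 in every library. In HFD+veh against ND+veh 3 of the 8 were called higher, as were 2 of 2 tested lymphocyte, 2 of 3 neutrophil, 3 of 3 cholangiocyte, 3 of 7 stellate and 1 of 7 endothelial markers. Of the 6 hepatocyte markers 1 was called lower and 0 higher there. A score over the immune markers, the mean of their standardized log2 CPM, was 0.75 to 1.76 in 5 of the 7 HFD+veh animals, above the highest ND+veh (0.69) and HFD+eRapa (0.67) animal, and −0.45 and −0.39 in HFD+veh replicates 1 and 2. For those 5 animals the immune score and the group cannot be told apart. A score of the same kind over endothelial, stellate and cholangiocyte markers was 0.91 to 1.73 in HFD+veh replicates 3 to 6. In replicate 7 it was 0.34, inside the ND+veh range (−1.15 to 0.69). As the samples were bulk RNA, fewer cells of a type and less RNA per cell cannot be told apart either. In the synthesis genes ND+veh replicate 4 and HFD+veh replicate 6 stood lowest in their groups most often, so counts are also given without both of them. HFD+eRapa replicate 7 was lowest of its group in 13 of these genes but was left out only singly.

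Promoter letters are shown for genes that changed between groups and whose 250 bases before the RefSeq start lay outside the annotated gene. RefSeq windows (build GRCm38.p6, 250 bases before to 50 after the start) were matched for 23 of the 28 genes. Fdps, Fdft1, Sqle, Soat2 and Stard4 had no window and were not searched. Capitals mark CCAAT, the box bound by NF-Y, on either strand, and in Hmgcs1 also TCACNCCAC, the core of the sterol regulatory element bound by SREBPs. Hmgcs1 and Mvk, of the mevalonate steps, and Nsdhl, of the sterol steps, were higher with rapamycin, while Pmvk and Scap were lower on HFD.
Hmgcs1 (chr13:119690101-119690350, + strand): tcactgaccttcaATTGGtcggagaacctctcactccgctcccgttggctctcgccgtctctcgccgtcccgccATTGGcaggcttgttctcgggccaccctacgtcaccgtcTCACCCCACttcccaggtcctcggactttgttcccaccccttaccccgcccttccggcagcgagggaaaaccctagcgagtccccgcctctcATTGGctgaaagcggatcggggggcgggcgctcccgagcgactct
Mvk (chr5:114444019-114444268, + strand): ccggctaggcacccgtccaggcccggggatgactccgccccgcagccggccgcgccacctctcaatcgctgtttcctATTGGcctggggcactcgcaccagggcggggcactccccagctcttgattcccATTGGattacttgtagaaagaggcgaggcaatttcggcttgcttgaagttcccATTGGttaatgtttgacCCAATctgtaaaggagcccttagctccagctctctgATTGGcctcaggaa
Nsdhl (chrX:72918271-72918520, + strand): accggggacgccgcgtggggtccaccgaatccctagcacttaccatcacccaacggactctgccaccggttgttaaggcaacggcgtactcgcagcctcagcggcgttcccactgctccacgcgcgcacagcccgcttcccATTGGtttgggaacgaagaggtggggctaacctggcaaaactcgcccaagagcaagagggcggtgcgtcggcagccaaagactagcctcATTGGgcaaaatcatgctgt
Pmvk (chr3:89454291-89454540, + strand): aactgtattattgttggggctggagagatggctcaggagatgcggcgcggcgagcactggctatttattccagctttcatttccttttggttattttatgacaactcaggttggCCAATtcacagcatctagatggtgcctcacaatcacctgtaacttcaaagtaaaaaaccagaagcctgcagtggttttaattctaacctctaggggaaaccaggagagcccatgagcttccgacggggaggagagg
Scap (chr9:110333038-110333287, + strand): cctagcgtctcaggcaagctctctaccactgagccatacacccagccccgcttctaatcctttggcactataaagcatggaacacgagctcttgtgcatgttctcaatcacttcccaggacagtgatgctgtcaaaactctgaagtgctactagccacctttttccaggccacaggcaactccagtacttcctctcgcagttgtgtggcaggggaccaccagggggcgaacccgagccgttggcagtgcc

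Hmgcs1 was the 1 gene of the 23 with an exact match to the sterol regulatory element core, against 1.44% of all genes with a window. The match lay 133 bases before the start, between CCAAT boxes. Sequences that differ in a letter, such as TCACCCCAT in the Srebf2 window, were not counted. A CCAAT box stood in the windows of 20 of the 23 genes and of 14 of the 15 synthesis genes matched, against 41.1% of all genes. Mvk had 5 within the 250 bases printed and Scap had none. The E-box CACGTG, searched on both strands like the others, was in 6 of the 23 against 8.09% of all genes. None of the 3 motifs overlaps another in these windows, and a letter match is a description of sequence, not of binding.

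**Figure D1:**
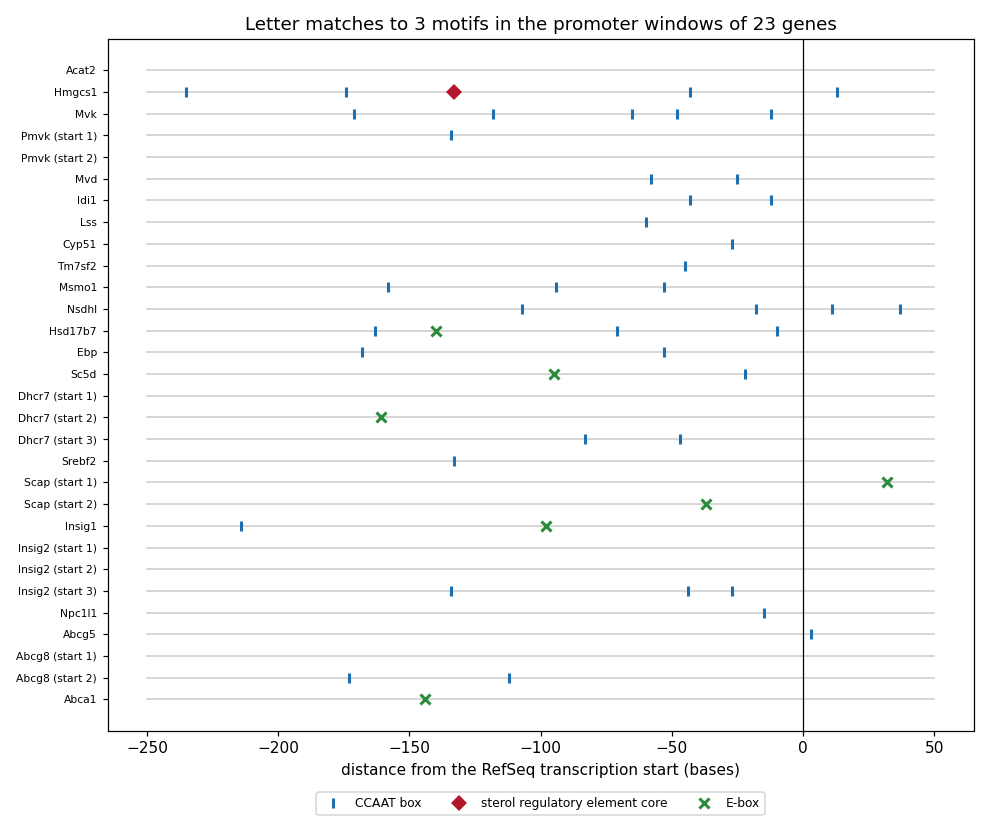
Matches to the CCAAT box (blue bars), the sterol regulatory element core (red diamond) and the E-box (green crosses) are placed by distance in bases from the RefSeq start, 1 line for each of the 30 windows of 23 genes. CCAAT boxes are spread over 20 genes, and the 1 element core is in Hmgcs1.

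Levels between genes were compared per transcript length, as deposited FPKM. Insig2, an ER anchor of SCAP, stood first in ND+veh with a median of 312 FPKM (154 to 337), followed by the desaturase Sc5d at 266 (127 to 349) and farnesyl diphosphate synthase, Fdps, at 251. These 3 ranges overlapped, and in HFD+veh the order of the first 2 was exchanged, with Sc5d at 228 and Insig2 at 226. At the low end stood mevalonate kinase, Mvk, at 9.37 FPKM in ND+veh, and lanosterol synthase, Lss, at 9.38 in HFD+veh. Hmgcs1, which condenses acetyl units at the head of the pathway, ranked 6 of 26 in HFD+veh (124 FPKM) and 4 of 26 in HFD+eRapa (167). Mvd, mevalonate diphosphate decarboxylase, was listed at 0 FPKM in all 24 libraries although it held 231 to 1470 counts, so its level per length is not known and it was left out of the order. Reads of 11 of the 28 genes are uncertain in part, because their exons overlap another gene (Hmgcs1, Idi1, Fdps, Fdft1, Lss, Cyp51, Tm7sf2, Scap, Abcg5 and Abcg8) or they share a near-identical stretch with one (Acat2), and the strand setting of the counting is not given in the sources used here.

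**Figure D2:**
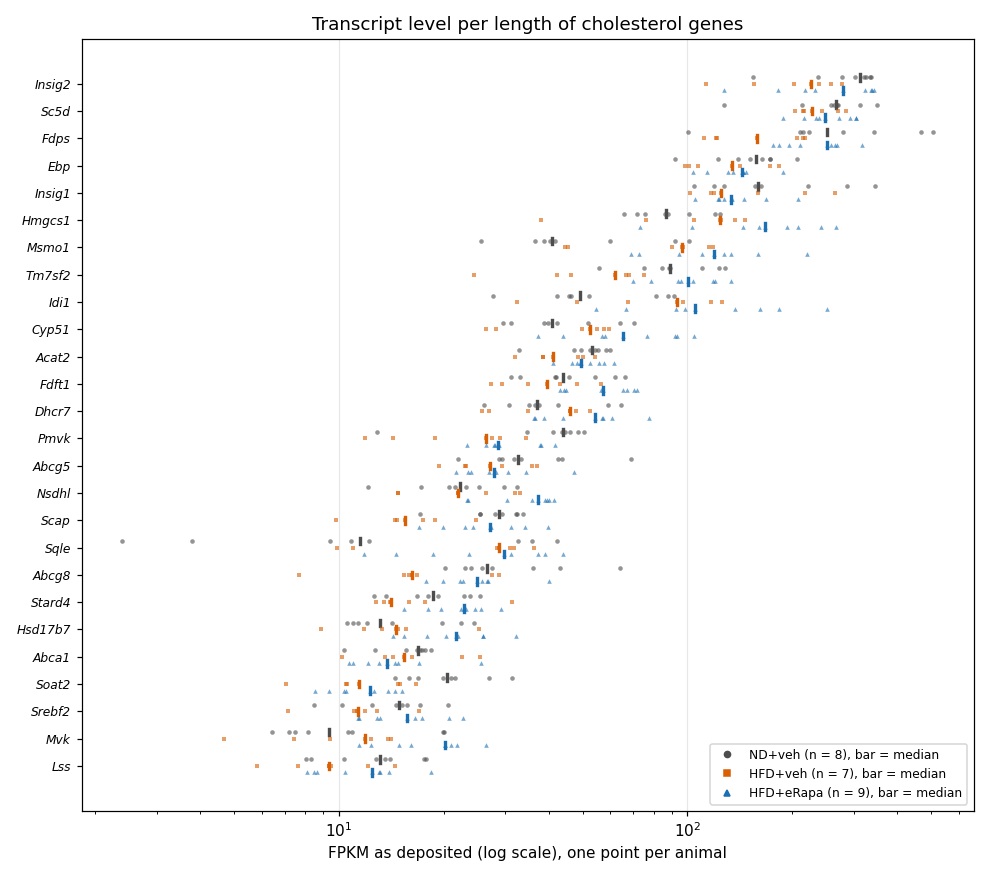
Deposited FPKM of 26 genes on a log axis, 1 point per animal, with a bar at each group's median, genes sorted by the mean of the group medians. Insig2, Sc5d and Fdps lie at the top of a range that reaches down to Mvk and Lss.

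The first comparison asks what 9 weeks of HFD did to these genes in vehicle-treated hepatocytes of old mice. Of 27 genes tested 6 fell and 0 rose (edgeR quasi-likelihood test, Benjamini-Hochberg adjusted p under 0.05 over all 13847 genes), beside 25.9% of all genes called, 9.86% of all genes lower and 16% higher. That split rested in part on 1 animal, as 2218 genes were higher and 1366 lower in all but 988 and 1118 without HFD+veh replicate 6, and 560 and 615 with the immune score in the fit. Those that fell were Pmvk, Fdps, Tm7sf2, Scap, Abcg8 and Soat2, each by between 0.75 and 0.87 on the log2 scale. At an unadjusted p under 0.05, 1 gene, Msmo1, was higher and 7 were lower, beside 23.4% and 16.1% of all genes. After adjustment DESeq2 and limma likewise called 0 higher. Of the 18 synthesis genes 3 fell, 12 had a log2 fold change below 0 and 6 above it, and their median was −0.11 against 0.05 over all genes tested. With the immune marker score in the fit 2 of the 27 genes were lower, and with the endothelial, stellate and cholangiocyte score 2 were, Soat2 being called in both, while the calls over all genes went from 3584 to 1175 and 1801. Pmvk kept log2 changes of −0.76 and −0.75 in those fits and Fdps of −0.70 and −0.68, both short of the threshold. In a fit of these 2 groups alone and with voom 3 genes were called lower, Tm7sf2, Scap and Soat2.

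The second comparison, HFD+eRapa against HFD+veh, set mice with rapamycin against mice without it on the same diet. The authors report that the HFD+eRapa mice also had lower body and liver weights and less liver fat. They write that some transcript changes might follow from weight loss, though they think it unlikely that all do. Drug and weight cannot be told apart in these samples. Here 9 of 27 genes rose and 0 fell, beside 32% of all genes called, 10.9% of all genes higher and 21.1% lower. Among the markers of other cells 6 of 8 macrophage, 2 of 2 lymphocyte, 2 of 3 neutrophil, 7 of 7 endothelial, 7 of 7 stellate and 1 of 3 cholangiocyte markers were called lower. Of the 6 hepatocyte markers 1 was called higher and 0 lower. The 9 genes that rose were Hmgcs1, Mvk, Fdft1, Cyp51, Tm7sf2, Nsdhl, Hsd17b7, Srebf2 and Scap. All 18 synthesis genes had a log2 fold change above 0, from 0.14 to 0.98 with a median of 0.65, against −0.04 over all genes, and 7 of them were called. At an unadjusted p under 0.05 18 genes were higher and 0 lower, beside 16.5% and 26.1% of all genes, and DESeq2, voom and limma on FPKM called 0 lower. With the immune score in the fit 2 genes were higher, Hmgcs1 and Insig2, and with the endothelial, stellate and cholangiocyte score edgeR called 0, with 7 higher and 1 lower at an unadjusted p under 0.05, beside 9.04% and 9.99% of all genes. Calls over all genes went from 4432 to 893 and 786. In those fits 16 of the 18 synthesis genes kept a fold change above 0, with medians of 0.47 and 0.40. Leaving out HFD+veh replicate 7, the animal with the highest value in 13 of the 18 synthesis genes, raised the count from 9 to 14, and leaving out ND+veh replicate 4 and HFD+veh replicate 6 together gave 11.

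In the third comparison both diet and drug differed. HFD+eRapa against ND+veh gave 6 genes that rose (Hmgcs1, Mvk, Idi1, Cyp51, Msmo1 and Nsdhl) and 1 that fell (Soat2), beside 13.5% of all genes called, 6.93% higher and 6.54% lower. All 6 that rose were synthesis genes. The 18 had a median of 0.48 against −0.03 over all genes, with 16 above 0. The 8 macrophage markers were not called here, with a median log2 fold change of −0.41. Of the other markers, 1 of 7 endothelial and 3 of 7 stellate were lower, and 0 of 6 hepatocyte markers were called. Among cholangiocyte markers 1 of 3 was higher, with a median log2 fold change of 1.56 over the 3. Between 6 and 10 members were called under the 12 alternatives. The 3 comparisons share samples, so their calls are not independent of each other. In none of the comparisons did the values of a member separate the groups completely, which happened for 2.44%, 2.59% and 3.37% of all genes.

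**Figure D3:**
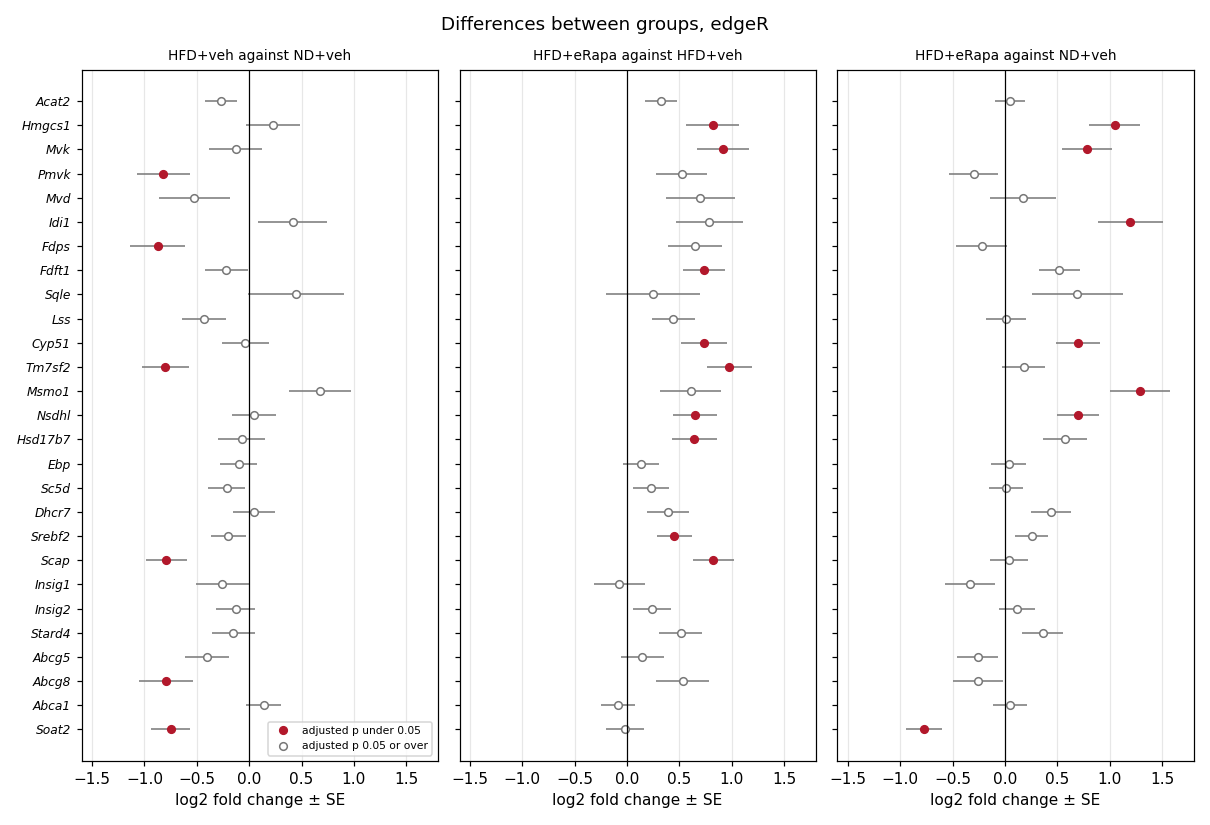
Log2 fold change ± SE (edgeR) of 27 genes in the 3 comparisons, filled where the adjusted p is under 0.05. All filled points lie below 0 in HFD+veh against ND+veh and above 0 in HFD+eRapa against HFD+veh.

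Among the mevalonate steps, Hmgcs1 lay between 154 and 384 CPM in ND+veh (median 286), between 137 and 467 in HFD+veh (median 345) and between 263 and 1010 in HFD+eRapa (median 559). Of the 9 HFD+eRapa animals 7 were above every HFD+veh animal and 7 above every ND+veh animal, and the others overlapped. It rose 1.76-fold against HFD+veh (log2 0.82, SE 0.25, edgeR adjusted p = 0.0170) and 2.07-fold against ND+veh (log2 1.05, SE 0.25, adjusted p = 0.00497). The first call held in 7 of 12 alternatives (log2 0.67 to 1.06, adjusted p of up to 0.152) and each animal left out, and the second under all 12 and each animal left out. In HFD+veh against ND+veh its log2 fold change was 0.23 (SE 0.26, adjusted p = 0.526).

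Idi1, the isomerase that makes dimethylallyl diphosphate, ranged over 26.7 to 87.6 CPM in ND+veh (median 50.4), 35.1 to 122 in HFD+veh (median 76.5) and 54.1 to 278 in HFD+eRapa (median 106). The highest value was HFD+eRapa replicate 2, also highest in the group for Hmgcs1 and Msmo1. All 9 HFD+eRapa animals were above the ND+veh median, and 7 above its highest animal. Idi1 rose 2.29-fold against ND+veh (log2 1.20, SE 0.31, edgeR adjusted p = 0.0109), a call that held under all 12 alternatives. Against HFD+veh its log2 fold change was 0.78 (SE 0.32, adjusted p = 0.0653), which passed the threshold without HFD+veh replicate 7 or HFD+eRapa replicate 7 or 8 (edgeR adjusted p of 0.0312 to 0.04997).

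Mvk, which phosphorylates mevalonate, lay at 9.01 to 26.9 CPM in ND+veh (median 11.6), 5.86 to 18.1 in HFD+veh (median 16.0) and 16.2 to 37.1 in HFD+eRapa (median 28.4). The 9 HFD+eRapa animals were all above the HFD+veh median, 7 of them above its highest animal. It rose 1.88-fold against HFD+veh (log2 0.91, SE 0.25, edgeR adjusted p = 0.00794) and 1.72-fold against ND+veh (log2 0.79, SE 0.24, adjusted p = 0.0284), the latter lost in 7 of 17 fits that left out 1 animal (ND+veh replicate 1, 4, 5, 6, 7 or 8, or HFD+eRapa replicate 3), where the adjusted p was 0.0502 to 0.0632. The former held in 9 of 12 alternatives and was lost with either marker score (log2 down to 0.57, edgeR adjusted p of up to 0.307).

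Fdps makes farnesyl diphosphate, the branch point between sterols and the lipid anchors of proteins. It ran from 48.9 to 327 CPM in ND+veh (median 167), 69.9 to 148 in HFD+veh (median 87.8) and 111 to 203 in HFD+eRapa (median 156). All 7 HFD+veh animals lay below the ND+veh median, and 5 ND+veh animals lay above every HFD+veh animal. The lowest value of all, 48.9, was in ND+veh replicate 4. Fdps fell 1.83-fold on HFD (log2 −0.87, SE 0.26, edgeR adjusted p = 0.0198), and its log2 fold change was 0.65 (SE 0.26, adjusted p = 0.0547) in HFD+eRapa against HFD+veh, which passed the threshold without HFD+veh replicate 2 or 7 or HFD+eRapa replicate 7. DESeq2 (adjusted p = 0.0493) and an edgeR fit of only the HFD groups (adjusted p = 0.0140) also called that difference. Pmvk, the kinase after Mvk, also fell on HFD, from 42.3 ± 13.7 (SD, n = 8) to 23.98 ± 8.53 CPM (SD, n = 7), a log2 change of −0.82 (SE 0.25, adjusted p = 0.0220). The means in HFD+eRapa were 34.4 ± 7.87 CPM (SD, n = 9) for Pmvk and 158 ± 32.7 for Fdps. In that group Pmvk was not called against either of the others with all animals in the fit. Without HFD+veh replicate 7 it was called higher than in HFD+veh (log2 0.67, edgeR adjusted p = 0.04035).

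Acat2 and Mvd were not called in any comparison with all animals in the fit. Acat2, the thiolase that starts the pathway, had means of 77.4, 64.1 and 80.2 CPM in ND+veh, HFD+veh and HFD+eRapa. Its reads are uncertain, since the gene shares a near-identical stretch with Acat3 and with Tcp1. Mvd had means of 28.9, 20.1 and 32.6 CPM, with a coefficient of variation of 56.2% in ND+veh. Without HFD+veh replicate 7 both were called higher with rapamycin on HFD (edgeR adjusted p = 0.0330 for Acat2 and 0.0456 for Mvd), and Acat2 was called lower on HFD without ND+veh replicate 4 (log2 −0.42, adjusted p = 0.0125). The mevalonate steps held genes with log2 changes of either sign on HFD, from −0.87 to 0.41, while all 7 were above 0 in HFD+eRapa against HFD+veh.

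**Figure D4:**
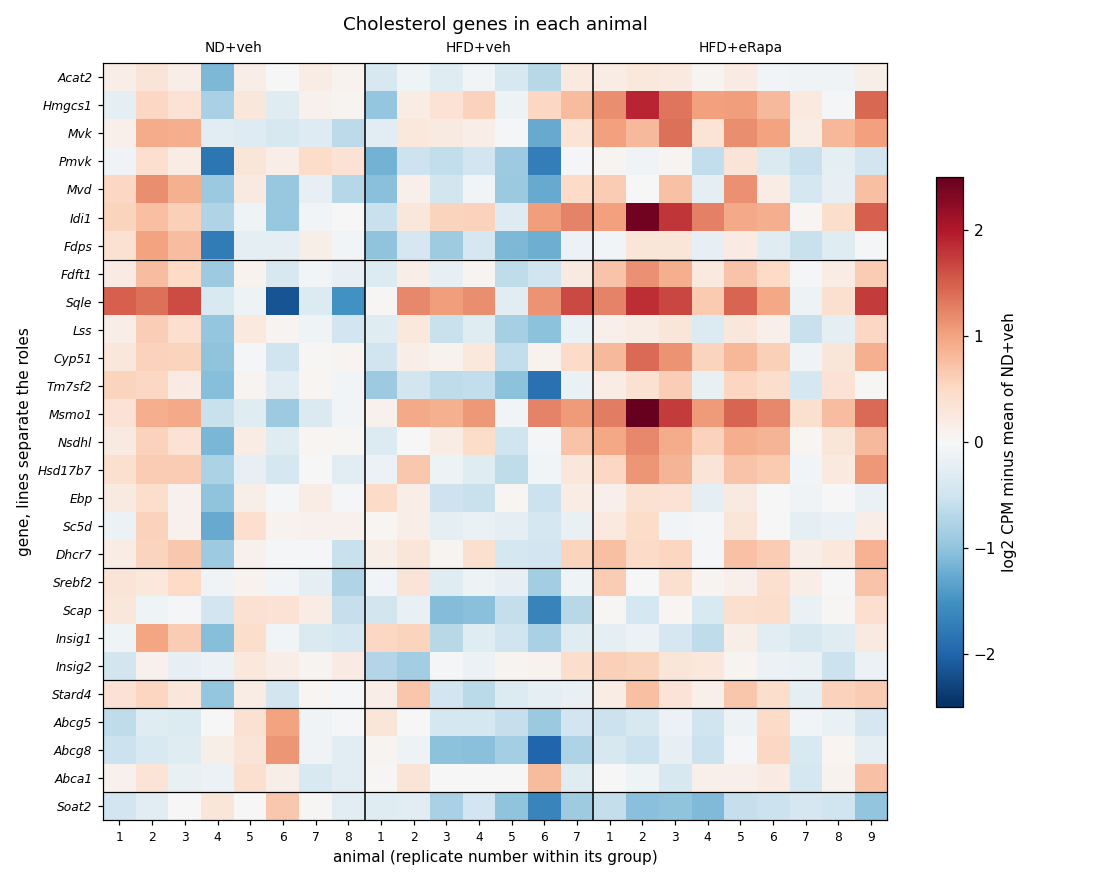
Log2 CPM of 27 genes in each of the 24 animals, as the difference from the ND+veh mean (red higher, blue lower), with lines between groups and roles. Most synthesis genes are red in HFD+eRapa, Sqle is mixed within ND+veh, and Soat2 is blue in both HFD groups.

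In the squalene and sterol steps, Msmo1, which removes methyl groups from lanosterol products, lay at 47.8 to 173 CPM in ND+veh (median 79.3), 85.5 to 211 in HFD+veh (median 172) and 119 to 506 in HFD+eRapa (median 219). All 7 HFD+veh and all 9 HFD+eRapa animals were above the ND+veh median. Msmo1 rose 2.44-fold in HFD+eRapa against ND+veh (log2 1.29, SE 0.29, edgeR adjusted p = 0.00331), held under all 12 alternatives and each animal left out. Its log2 fold change was 0.68 (SE 0.30, adjusted p = 0.0912) on HFD alone, past the threshold without ND+veh replicate 2 or 3, and 0.61 (SE 0.29, adjusted p = 0.114) with rapamycin on HFD.

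Tm7sf2, a sterol C14 reductase, was lowest in HFD+veh. Its values were 57.4 to 177 CPM in ND+veh (median 125), 32.9 to 107 in HFD+veh (median 76.9) and 88.7 to 182 in HFD+eRapa (median 153). In ND+veh 6 of 8 animals and in HFD+eRapa 7 of 9 were above every HFD+veh animal. It fell 1.74-fold on HFD (log2 −0.80, SE 0.22, edgeR adjusted p = 0.0132) and rose 1.97-fold with rapamycin on HFD (log2 0.98, SE 0.22, adjusted p = 0.00240), while HFD+eRapa and ND+veh differed by 0.18 (SE 0.21, 95% interval −0.23 to 0.58). The fall was called in 10 of 12 alternatives and the rise in 9 of 12. Both missed the threshold with either marker score (edgeR adjusted p of up to 0.1695 and 0.1447). Tm7sf2 overlaps exons of Vps51 on the same strand, and its reads are to that extent uncertain.

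Cyp51, the lanosterol demethylase, lay at 77.8 to 234 CPM in ND+veh (median 163), 103 to 218 in HFD+veh (median 168) and 148 to 418 in HFD+eRapa (median 276). In HFD+eRapa 7 of 9 animals were above every HFD+veh animal. Cyp51 rose 1.66-fold against HFD+veh (log2 0.73, SE 0.22, edgeR adjusted p = 0.0140) and 1.62-fold against ND+veh (log2 0.70, SE 0.21, adjusted p = 0.0285). The former held in 6 of 12 alternatives (log2 0.55 to 0.82, edgeR adjusted p of up to 0.179). The latter call was lost without ND+veh replicate 4 or 6 or HFD+eRapa replicate 2 or 3, with an adjusted p of 0.0548 to 0.0657. Fdft1, squalene synthase, was between 63.7 and 203 CPM in ND+veh (median 120), between 76.6 and 140 in HFD+veh (median 103) and between 116 and 262 in HFD+eRapa (median 184). Again 7 of 9 HFD+eRapa animals exceeded every HFD+veh animal, and the rise was 1.66-fold (log2 0.74, SE 0.20, edgeR adjusted p = 0.00875). That call held in 9 of 12 alternatives and was lost with either marker score (log2 down to 0.52, edgeR adjusted p of up to 0.232). Exons of Fdft1 overlap those of Ctsb on the other strand.

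Nsdhl, which acts after Msmo1 in the removal of the C4 methyl groups, rose against both other groups, from 50.7 ± 15.4 CPM (SD, n = 7) in HFD+veh and 49.1 ± 14.7 (SD, n = 8) in ND+veh to 79.4 ± 18.1 (SD, n = 9). The log2 changes were 0.65 (SE 0.21, edgeR adjusted p = 0.0196) and 0.70 (SE 0.20, adjusted p = 0.0200), and the second held under all 12 alternatives. The first held in 8 of 12 and was lost with either marker score (edgeR adjusted p of up to 0.233). Hsd17b7, the ketoreductase of the same step, rose from 70.7 to 110 CPM against HFD+veh (log2 0.64, SE 0.22, adjusted p = 0.0267) but was called in 6 of 12 alternatives, with a log2 change down to 0.26 and an adjusted p of up to 0.596, and lost the call in 5 of 16 fits without 1 animal (HFD+veh replicate 3, 4, 5 or 6, or HFD+eRapa replicate 9, edgeR adjusted p of 0.0507 to 0.0605).

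The other 5 sterol genes were not called in any comparison as fitted. Lss and Sc5d were called lower on HFD without ND+veh replicate 4 (edgeR adjusted p = 0.0373 and 0.0458), and Lss was called without HFD+veh replicate 2, lower on HFD and higher with rapamycin (adjusted p = 0.0398 and 0.0297). Sqle, squalene epoxidase and a rate-controlling enzyme of the pathway, was the most variable of the 27 in ND+veh, with a coefficient of variation of 81.9% there, 40.4% in HFD+veh and 41.0% in HFD+eRapa. In ND+veh 3 animals held 95.8 to 113 CPM and the other 5 held 8.17 to 33.6, a 13.8-fold range. Ebp and Sc5d, the isomerase and desaturase near the end, had log2 fold changes of 0.03 (95% interval −0.29 to 0.36) and 0.01 (−0.31 to 0.33) in HFD+eRapa against ND+veh. Lss differed there by 0.01 (−0.37 to 0.39), and Dhcr7, the last reductase, by 0.44 (0.07 to 0.81, edgeR adjusted p = 0.138).

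Some animals stood at the end of their group for many synthesis genes. ND+veh replicate 2 was highest of its group in 13 of the 18 and replicate 4 lowest in 13, HFD+eRapa replicate 2 was highest in 11 and replicate 7 lowest in 13. The 2 low animals had the lowest hepatocyte marker sums of their groups, 54489 and 48540 CPM. HFD+veh replicate 6 was lowest in 9 genes yet highest in Msmo1, its 18 genes running from −1.86 to 1.23 around the ND+veh mean on the log2 scale. All 18 genes together took 0.143% to 0.359% of the counts in ND+veh (median 0.232%), 0.172% to 0.281% in HFD+veh (median 0.245%) and 0.214% to 0.402% in HFD+eRapa (median 0.326%), so the ranges overlapped.

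Of the control genes, Scap, the sterol sensor that escorts SREBP2, lay at 71.5 to 139 CPM in ND+veh (median 113), 33.6 to 94.1 in HFD+veh (median 66.3) and 78.6 to 145 in HFD+eRapa (median 110). In 5 of 7 HFD+veh animals Scap was below every ND+veh animal, and 7 of 9 HFD+eRapa animals were above every HFD+veh animal. It fell 1.73-fold on HFD (log2 −0.79, SE 0.20, edgeR adjusted p = 0.00691) and rose 1.77-fold with rapamycin on HFD (log2 0.82, SE 0.19, adjusted p = 0.00307). HFD+eRapa and ND+veh differed by 0.04 (95% interval −0.32 to 0.39). The rise with rapamycin missed the threshold with either marker score in the fit (log2 0.42 and 0.38, edgeR adjusted p of up to 0.226), and the fall on HFD was called in 11 of 12 alternatives, missing it with the immune score (log2 −0.46, adjusted p = 0.0776).

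Srebf2, which encodes SREBP2 itself, ran from 36.5 to 86.5 CPM in ND+veh (median 62.0), 33.6 to 76.8 in HFD+veh (median 56.7) and 60.9 to 101 in HFD+eRapa (median 68.8). All 9 HFD+eRapa animals were above the HFD+veh median but only 4 above its highest animal. It rose 1.37-fold against HFD+veh (log2 0.45, SE 0.16, edgeR adjusted p = 0.0382), which 4 of 12 alternatives and 8 of 16 fits without 1 animal kept. It was lost without HFD+veh replicate 3, 4, 5 or 6 or HFD+eRapa replicate 1, 3, 6 or 9, with an edgeR adjusted p of 0.0573 to 0.0863.

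The INSIG genes were not called in any comparison without a marker score in the fit. Insig1, itself a target of SREBP2, lay at 214 to 893 CPM in ND+veh (median 423), 256 to 660 in HFD+veh (median 365) and 289 to 528 in HFD+eRapa (median 369). Its log2 fold change in HFD+eRapa against HFD+veh was −0.07 (95% interval −0.56 to 0.41), beside values of 0.14 to 0.98 for the 18 synthesis genes. HFD+veh replicates 1 and 2, the pair with low immune scores, held 644 and 660 CPM, against 256 to 365 in the other 5. Insig2, which has a liver-specific transcript, had medians of 412, 375 and 405 CPM in ND+veh, HFD+veh and HFD+eRapa, with log2 fold changes of at most 0.24 in either direction. With the immune score in the fit Insig2 was called on HFD (log2 −0.52, edgeR adjusted p = 0.0454) and with rapamycin on HFD (log2 0.67, adjusted p = 0.0129), and with the endothelial, stellate and cholangiocyte score Insig1 was called in HFD+eRapa against ND+veh (log2 −0.55, adjusted p = 0.0341).

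For uptake, Npc1l1 had 0 to 5 counts in any ND+veh library, 0 to 4 in HFD+veh and 0 in each HFD+eRapa library, at which depth a count of 0 allows up to 0.129 to 0.185 CPM per library (3 counts, counting error only). No difference can be read at that level. Stard4, which ferries sterol between membranes and is a target of SREBP2, had medians of 106 CPM in ND+veh (49.5 to 140), 81.6 in HFD+veh (60.4 to 157) and 130 in HFD+eRapa (83.2 to 164). Its log2 fold change with rapamycin on HFD was 0.51 (SE 0.20, edgeR adjusted p = 0.0564), short of the threshold, which it passed without HFD+veh replicate 1 or 2 or HFD+eRapa replicate 4 or 7 (0.00663 to 0.0496).

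ABCG5 and ABCG8 form 1 transporter that moves sterol into bile, and their genes lie head to head on chromosome 17. The bases between their RefSeq starts (build GRCm38.p6, strand of Abcg8) hold none of the 3 motifs and are shown because the gene pair diverges there. RefSeq has 2 starts for Abcg8, and the other lies within Abcg5, so the stretch precedes 1 of them and is otherwise intronic.
Abcg5 to Abcg8 (chr17:84683012-84683120, + strand): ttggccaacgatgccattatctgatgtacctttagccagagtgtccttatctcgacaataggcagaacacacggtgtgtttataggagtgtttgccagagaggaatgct

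Abcg8 ran from 68.6 to 216 CPM in ND+veh (median 88.7), 25.3 to 104 in HFD+veh (median 55.1) and 68.9 to 143 in HFD+eRapa (median 84.3). In 5 of 7 HFD+veh animals it was below every ND+veh animal. The other 2, replicates 1 and 2, held 104 and 91.2 CPM. Abcg8 fell 1.73-fold on HFD (log2 −0.79, SE 0.26, edgeR adjusted p = 0.0289), called in 5 of 12 alternatives and lost with the marker scores, with its log2 change between −0.97 and −0.56. Without ND+veh replicate 5 or 6 or HFD+veh replicate 3, 4 or 6 the adjusted p was 0.0501 to 0.0779. In HFD+eRapa against HFD+veh it differed by 0.53 (SE 0.25, adjusted p = 0.1096), or by 0.71 without HFD+veh replicate 1 (edgeR adjusted p = 0.0305).

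Abcg5 lay at 55.8 to 174 CPM in ND+veh (median 83.5), 45.7 to 107 in HFD+veh (median 63.5) and 59.8 to 121 in HFD+eRapa (median 77.4), and was not called. Its log2 change on HFD was −0.40 (SE 0.21, edgeR adjusted p = 0.157). The same animal was highest for both genes in each group, ND+veh replicate 6, HFD+veh replicate 1 and HFD+eRapa replicate 6. Exons of the pair overlap on opposite strands, so some reads may be counted for the wrong partner. Abca1, which loads cholesterol onto apolipoprotein A-I, stayed within a log2 change of −0.09 to 0.14, with means of 165 ± 32.8 (SD, n = 8), 182 ± 49.2 (SD, n = 7) and 171 ± 43.6 CPM (SD, n = 9).

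Soat2, the enzyme that esterifies cholesterol in hepatocytes for storage and secretion, was lower in both HFD groups. It lay at 37.3 to 82.5 CPM in ND+veh (median 52.2), 16.4 to 42.8 in HFD+veh (median 29.6) and 24.04 to 38.8 in HFD+eRapa (median 34.3). All 7 HFD+veh and all 9 HFD+eRapa animals were below the ND+veh median, and 8 of the 9 were below every ND+veh animal. Soat2 fell 1.68-fold in HFD+veh (log2 −0.75, SE 0.19, edgeR adjusted p = 0.00685) and 1.71-fold in HFD+eRapa (log2 −0.77, SE 0.17, adjusted p = 0.00349). Both calls held under all 12 alternatives and in every fit without 1 animal. The HFD groups differed by −0.02 (95% interval −0.37 to 0.33).

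**Figure D5:**
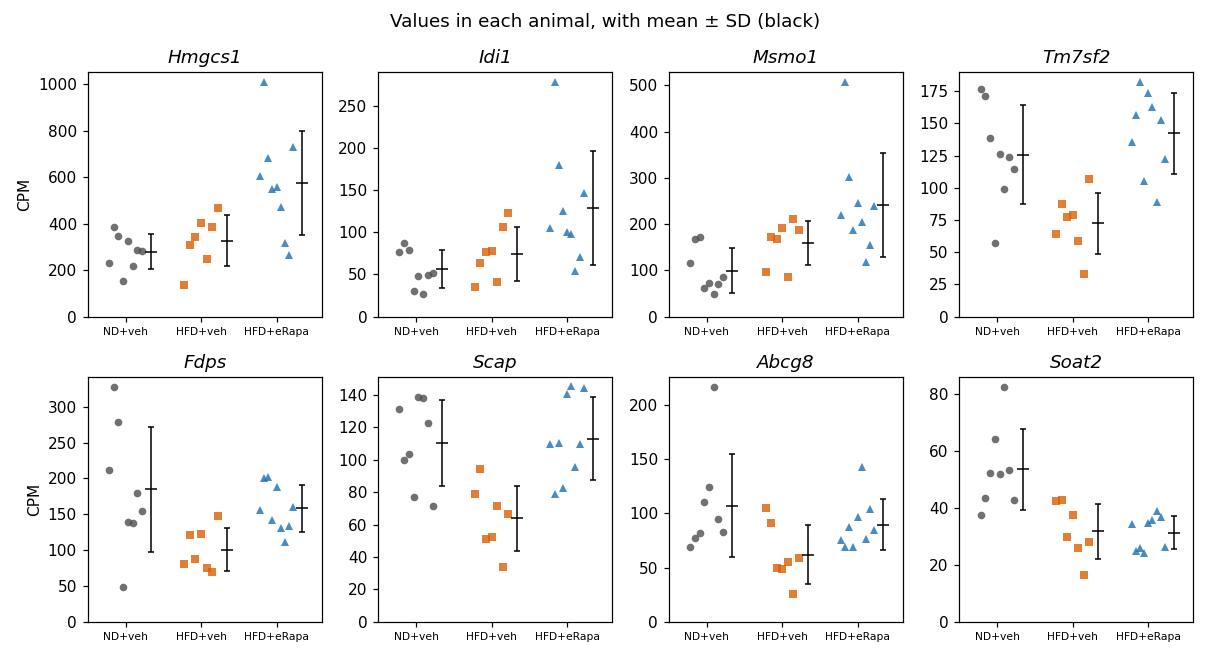
CPM in each animal for 8 genes in ND+veh (circles), HFD+veh (squares) and HFD+eRapa (triangles), with the mean ± SD in black. Hmgcs1, Idi1 and Msmo1 are highest in HFD+eRapa, Tm7sf2, Fdps, Scap and Abcg8 are lowest in HFD+veh, and Soat2 is low in both HFD groups.

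Other cholesterol genes on a list of 26 gave 6 higher and 3 lower on HFD, 2 higher and 8 lower with rapamycin on HFD, and 1 of each in HFD+eRapa against ND+veh, beside the 25.9%, 32% and 13.5% of all genes called. Soat1, the esterifying enzyme of macrophages and other tissues, rose from 4.24 to 36.0 CPM on HFD (log2 3.08, SE 0.84, edgeR adjusted p = 0.0125) and stood at 3.73 CPM in HFD+eRapa, moving with the macrophage markers given above. Abcg1, an exporter abundant in macrophages, was 8.23, 36.3 and 6.65 CPM in the same order. Npc2, which hands sterol out of lysosomes, was 76.1, 135 and 58.9 CPM. The part of macrophages in these values was not tested. Mbtps1, the protease that makes the first cut in SREBP2, fell on HFD (59.2 to 48.8 CPM, log2 −0.28, SE 0.08, adjusted p = 0.0155) and rose with rapamycin to 63.4 CPM (log2 0.38, SE 0.08, adjusted p = 0.00136), with no overlap between the 2 HFD groups. Such separation was seen in 1 of the 26 genes and in 2.59% of all genes. Tmem97, a sterol-regulated membrane protein, rose with rapamycin against HFD+veh (log2 0.38, adjusted p = 0.00858) and against ND+veh (log2 0.35, adjusted p = 0.0200). The calls of these 26 genes were not examined with a marker score in the fit.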

How the data were processed

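Hepatocyte polyA RNA from 24 mice (ND+veh, n = 8, HFD+veh, n = 7, HFD+eRapa, n = 9) was sequenced, with the same batch label on every sample, and groups were taken from the sample labels. The authors aligned reads with STAR to mm10 (Gencode vM23), handled alignments with SAMtools 1.1.0 and deposited counts per gene from HTSeq 0.11.2, and also deposited FPKM from Cufflinks. The strand setting is not given in the sources used here.

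Counts were analysed with edgeR 4.0.16 in R 4.3.3, with filterByExpr, TMM scaling and robust quasi-likelihood fits of all 3 groups, over 13847 genes. Log2 CPM used a prior count of 2. A gene was called at a Benjamini-Hochberg adjusted p under 0.05. FPKM served for levels between genes and, as log2(FPKM + 1) and log2(FPKM + 0.1), for limma 3.58.1. These changes understate those of low genes. DESeq2 1.42.0, voom, DESeq2 size factors, marker scores as covariates, other filters, only the groups compared, a replicate block and left-out animals were the alternatives. The edgeR fit as reported, DESeq2, voom, limma on log2(FPKM + 1) and the replicate block for HFD+veh against ND+veh were run on simulated data. Fits with marker scores, other filters, only the groups compared or left-out animals were not. The outcomes of these runs are not given here. The simulated FPKM were counts scaled to the library total without transcript length, unlike the deposited FPKM. Library totals of 17739252 to 25945134 counts set the precision. None of the 276 pairs of libraries agreed within sampling noise.

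The genes and lists were chosen with earlier results of these data known. All 28 genes were described, with values per animal for called genes of largest absolute change (up to 4 in each synthesis group, all in other roles), and other genes were named only from the fixed lists. Replicate numbers belong to different animals and were not used as pairs. Sequences are from RefSeq windows of GRCm38.p6. A gene was called near-identical to another from 300 aligned bases at 95% identity. Gene overlaps came from Gencode M21.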

Additional observations from a re-analysis of the deposited data

Results flagged for a closer look

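In 7 of the 81 sets of values formed by 27 genes and 3 groups, 1 animal stood apart from the rest of its group by Dixon's criterion, where chance gives about 4.05. ND+veh replicate 4 accounted for 5 of them, with log2 CPM of 5.11 in Acat2 (others 6.24 to 6.55), 3.48 in Pmvk (5.19 to 5.74), 5.61 in Fdps (7.11 to 8.36), 6.72 in Ebp (7.69 to 8.17) and 8.06 in Sc5d (9.18 to 9.91), each the lowest of its group. The same animal had the lowest hepatocyte marker sum of ND+veh, 54489 CPM. HFD+veh replicate 6 was low in Mvk at 2.57 (3.56 to 4.18), and had the highest macrophage marker sum, 5221 CPM. HFD+eRapa replicate 6 was high in Abcg5 at 6.93 (5.90 to 6.37).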

How the results depend on the processing

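No call of the 27 genes reversed in any alternative. The 6 genes called in HFD+veh against ND+veh became 3 with voom, 2 with the immune score, 2 with the endothelial, stellate and cholangiocyte score and 3 in a fit of only those groups, and the synthesis genes among them went from 3 to 1, 0, 0 and 1. The 9 called in HFD+eRapa against HFD+veh became 4, 2 and 0 with voom and the 2 scores and 5 with limma on log2(FPKM + 1), and the 7 synthesis genes 3, 1, 0 and 4. Where edgeR called 0 synthesis genes with a score, 3 were lower on HFD (either score, beside 11.9% and 13.3% of all genes) and 5 higher with rapamycin on HFD (9.04% of all genes) at an unadjusted p under 0.05. Over all genes, 3584 became 1798 with voom, 1175 and 1801 with the scores, 2333 with only those groups and 2300 without ND+veh replicate 4 and HFD+veh replicate 6, a choice made after seeing the data, and 4432 became 893 and 786 with the scores and 2809 with at least 10 counts in every library, where fewer genes are tested. The total counts of HFD+eRapa against ND+veh stayed within 1.5 times, but by direction limma on log2(FPKM + 1) gave 519 higher genes (959 as reported) and the immune score 1508 lower (906). Apart from construction, the cause was not tested. Replicate numbers do not mark shared animals, and not every pair of same-numbered animals deviated together (mean correlations of 0.32, −0.24 and −0.20 in the 3 comparisons, with 3, 0 and 0 animals closest to their own number). With the replicate block 3, 0 and 10 members were called, 1, 0 and 9 synthesis genes, and 305 of all genes in HFD+eRapa against HFD+veh, where 13 members were higher at an unadjusted p under 0.05 (11.1% of all genes) and the synthesis genes had a median log2 change of 0.69, with 18 above 0. Leaving out 1 animal gave 5 to 9, 7 to 14 and 5 to 9 members, 3 to 6, 6 to 12 and 4 to 8 synthesis genes, and 2106 to 4479, 3269 to 5061 and 1462 to 1806 of all genes. The moves past 1.5 times came without HFD+veh replicate 7 (14 members, 12 synthesis genes), ND+veh replicate 4 (6 synthesis genes on HFD) and HFD+veh replicate 6 (2106 of all genes on HFD). Groups of 7 to 9 animals limit what can be seen for a single gene.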
